A study of Mus musculus with 8 samples.

Results

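The genes carried by the mouse mitochondrial genome were examined in regulatory T (Treg) cells. They were taken as every row of the table whose symbol starts with mt-, which gave 37 of 52459 genes, of which 2 encode ribosomal RNAs (rRNAs), 13 encode messenger RNAs (mRNAs) and 22 encode transfer RNAs (tRNAs). Polyadenylated RNA was sequenced from Treg cells of C57BL/6 background in 8 libraries, with 2 per group in 4 groups set by genotype and stimulation. For each library, CD4+CD25hi cells were sorted from the spleens and lymph nodes of several heterozygous females, pooled, in which a Cre recombinase fused to YFP is driven from the X-linked Foxp3 locus, so that only some Treg cells express it. The WT groups are YFPcre- cells and the DKO groups are YFPcre+ cells, labelled with the floxed alleles Stim1 fl/f and Stim2 fl/fll together with Foxp3-YFPcre, so that loss of the calcium sensors STIM1 and STIM2 cannot be told apart from the presence of Cre. Each genotype was measured unstimulated and after 16 h in culture on plate-bound anti-CD3/CD28 antibody at 1 µg/ml. Unstimulated libraries were run on lane 4 and stimulated libraries on lane 1, and no time in culture is given for the unstimulated cells. The effect of the antibodies can therefore not be told apart from that of lane or of 16 h in culture.

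Total Stim1 was not lower in the unstimulated libraries labelled DKO, with 1538 and 1868 normalized counts against 1139 and 1377 in WT, and after stimulation it was 552 and 642 against 645 and 673. Total Stim2 was 904 and 744 against 906 and 908, then 620 and 696 against 665 and 782. Counts over a whole gene include exons outside a deleted part and do not check the deletion, so that genotype is used here as labelled. A normalized count is the number of reads on a gene divided by 1 size factor per library. Whole reads could be recovered from these values. A library held 11851853 to 16306540 of them on genes, each worth 0.759 to 1.48 normalized counts. The Treg markers Foxp3, Il2ra, Ctla4, Ikzf2, Cd3e and Cd4 were detected in every group, with summed counts from 40109 to 47805 in the unstimulated DKO libraries and from 67927 to 112665 in the other 6. Both unstimulated DKO libraries stand apart in macrophage markers, with summed counts of 8 markers of 7712 and 1056 in replicates 1 and 2 and from 27.0 to 118 elsewhere. Replicate 1 was also the highest in 6 B cell markers, at 2435, and in 4 neutrophil and monocyte markers, at 2689, whereas replicate 2, at 529 and 644, lay within the ranges of the other 6 libraries, 153 to 1170 and 143 to 769. Erythroid markers summed to 32.4 to 217 and CD8 T and NK cell markers to 202 to 802 over all libraries.

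Mammalian mitochondrial DNA is transcribed from both strands as long RNAs that run through many genes. The tRNAs lie between most of the other genes and are cut out of these precursors, which releases the rRNAs and mRNAs, and most of the mRNAs are then polyadenylated inside the organelle. The mRNAs encode core subunits of complexes I, III and IV of the respiratory chain and of ATP synthase, and the rRNAs and tRNAs serve the ribosomes that translate them, whereas every other protein of these machines is made from nuclear genes. The light-strand transcript carries Nd6 and a minority of the tRNAs, and the heavy-strand transcript carries the rest.

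Short reads are a particular difficulty for these genes because pieces of mitochondrial DNA have been copied into the nuclear chromosomes, and reads that match both places equally well are dropped when only unique reads are kept. A stretch within mt-Co3 and the end of the long copy on chromosome 1 within mt-Nd4 are shown to make this visible. Both are given 5′ to 3′ in the sense of the gene on build NCBIM37, with bases that differ between the mitochondrial and the nuclear sequence in capitals. The mitochondrial pieces are chrM:8969-9028 and chrM:11007-11066 on the plus strand, and their partners are chr1:24620389-24620448 and chr1:24618350-24618409 on the minus strand.
mt-Co3 mitochondrial: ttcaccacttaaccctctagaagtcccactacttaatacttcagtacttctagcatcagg
mt-Co3 chromosome 1 copy: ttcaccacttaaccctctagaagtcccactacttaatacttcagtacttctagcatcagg
mt-Nd4 mitochondrial: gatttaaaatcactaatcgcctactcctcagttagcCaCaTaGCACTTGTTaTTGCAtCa
mt-Nd4 chromosome 1 copy: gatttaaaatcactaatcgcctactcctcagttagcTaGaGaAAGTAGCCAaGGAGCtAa
The 60 bases of mt-Co3 had 0 differences from chromosome 1, and the 60 bases of mt-Nd4 had 18, all towards the 3′ end, where the copy stops.

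The copy on chromosome 1 pairs with chrM:6390-9832 at 4 mismatches in 3443 bases and with chrM:9817-11046 at 4 mismatches in 1230 bases. Over the whole mitochondrial genome, 5818 of 16250 windows of 50 bases, the read length, had an exact nuclear copy (35.8%), and 51.8% had a copy within 2 mismatches. Members with no window free of an exact nuclear copy had at most 13 reads in a library. The map did not order the tRNAs, as mt-Ts2, with 100% of windows free of such a copy, reached at most 3 reads.

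**Figure D1:**
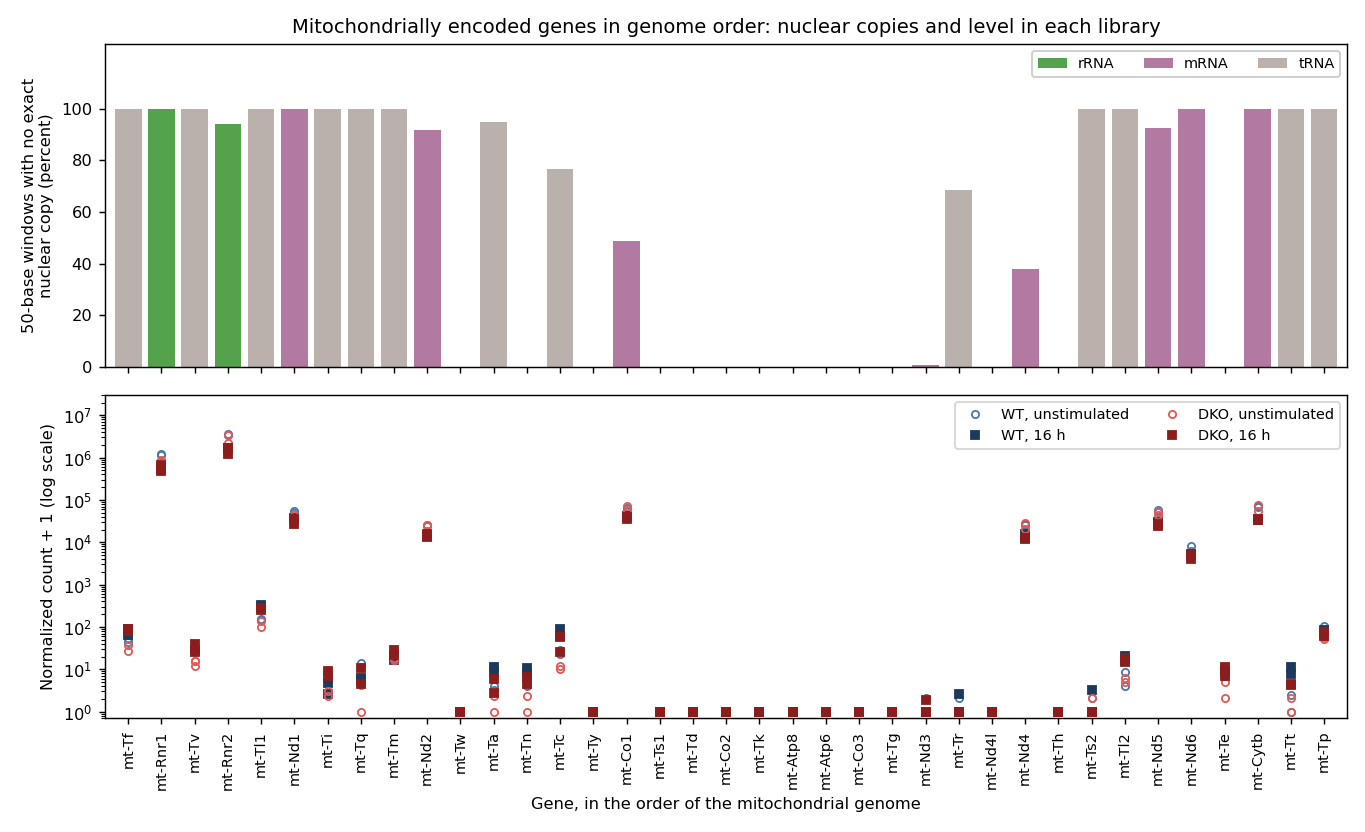
The upper bars give the percentage of 50-base windows of each gene with no exact nuclear copy on NCBIM37, and the lower points give its normalized count plus 1 in each of 8 libraries on a log scale, with genes in genome order. The 12 genes at 0 in every library have no bar, nor do mt-Tn and mt-Te, and most of the 12 sit between mt-Co1 and mt-Nd4.

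Of the 37 members, 12 were listed at 0 in every library, namely the mRNAs mt-Co2, mt-Atp8, mt-Atp6, mt-Co3 and mt-Nd4l and the tRNAs mt-Tw, mt-Ty, mt-Ts1, mt-Td, mt-Tk, mt-Tg and mt-Th. None of these 12 has a single 50-base window without an exact nuclear copy, so their zeros say nothing of whether the RNA was present. In all, 14 members have no such window, and the other 2, mt-Tn and mt-Te, reached at most 13 reads in a library. mt-Nd3, a subunit of complex I, has 3 usable windows and reached at most 1 read. mt-Co1 and mt-Nd4 were counted over part of their length, with 48.9% and 37.8% of windows lacking an exact copy. For mt-Rnr1, mt-Nd1, mt-Nd6 and mt-Cytb this share was 100%, and for mt-Rnr2, mt-Nd5 and mt-Nd2 it was 93.9%, 92.4% and 91.7%. Copies within 2 mismatches are more frequent, and only 5.21% of the windows of mt-Co1 lack one.

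The 16 members whose mean reached 10 normalized counts were tested, which were both rRNAs, 7 mRNAs and 7 tRNAs. The other 9 detected members were 8 tRNAs and mt-Nd3, whose highest value in any library was 12.95 normalized counts. The comparison between genes depends on how much of each gene could be counted. Per kilobase of gene in unstimulated WT cells, the order of mean normalized counts was mt-Cytb (59804), mt-Nd1 (55005), mt-Co1 (38725), mt-Nd5 (29548), mt-Nd2 (24227), mt-Nd4 (19107) and mt-Nd6 (13862). Per 1000 windows without an exact copy, mt-Co1 came first at 81847, ahead of mt-Cytb at 62481, and mt-Nd4 came to 52450, beside mt-Nd1 at 57974. On either scale mt-Nd6, the mRNA of the light strand, was the lowest of the 7 in this polyadenylated RNA. The 2 rRNAs lay far above, at 2203630 for mt-Rnr2 and 1239450 for mt-Rnr1 per kilobase.

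The 7 tRNAs with enough counts are printed with the anticodon in capitals, since 3 of them are the members called higher with stimulation. They are read 5′ to 3′ in the sense of each gene from chrM of NCBIM37, with mt-Tc and mt-Tp on the minus strand and the rest on the plus strand.
mt-Tf: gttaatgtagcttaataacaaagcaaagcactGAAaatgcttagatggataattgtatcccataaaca
mt-Tv: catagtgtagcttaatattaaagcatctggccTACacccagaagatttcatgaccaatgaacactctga
mt-Tl1: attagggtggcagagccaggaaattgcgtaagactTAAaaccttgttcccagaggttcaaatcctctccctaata
mt-Tm: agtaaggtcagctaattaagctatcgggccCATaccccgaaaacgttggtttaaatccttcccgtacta
mt-Tc: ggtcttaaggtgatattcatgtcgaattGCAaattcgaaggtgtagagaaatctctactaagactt
mt-Tl2: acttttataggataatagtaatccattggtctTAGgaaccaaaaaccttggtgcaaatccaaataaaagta
mt-Tp: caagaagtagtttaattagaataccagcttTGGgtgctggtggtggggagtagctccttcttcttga
They carry phenylalanine, valine, leucine (UUR codons), methionine, cysteine, leucine (CUN codons) and proline in the order printed. mt-Tf spans chrM:1-68, mt-Tv chrM:1025-1093, mt-Tl1 chrM:2676-2750, mt-Tm chrM:3845-3913, mt-Tc chrM:5192-5257, mt-Tl2 chrM:11671-11741 and mt-Tp chrM:15356-15422. Each is between 66 and 75 bases long, so a 50-base read can lie wholly inside at only 17 to 26 positions. How a read spanning a tRNA and its neighbour was counted is not given in the sources used here.

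Together the members took between 15.1% and 29.5% of all reads counted on genes. The share was 28.2% and 28.3% in the 2 unstimulated WT libraries and 19.4% and 19.8% in the stimulated WT libraries. In libraries labelled DKO it was 29.5% and 19.96% unstimulated and 19.8% and 15.1% stimulated. Within each genotype the stimulated libraries lay below the unstimulated ones, but in DKO the gap between the nearest libraries was small against the spread within a group. The mean difference with stimulation was -7.98 percentage points. An exact permutation of the stimulation labels within each genotype gave p = 0.0556, the smallest this design of 36 arrangements allows, and 0.111 after Benjamini-Hochberg adjustment over 8 tests of shares. Counting error was negligible here, with 95% Wilson intervals of at most 0.0257 percentage points to either side, which cover counting alone. In bulk RNA fewer cells of a type cannot be told apart from less RNA per cell.

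**Figure D2:**
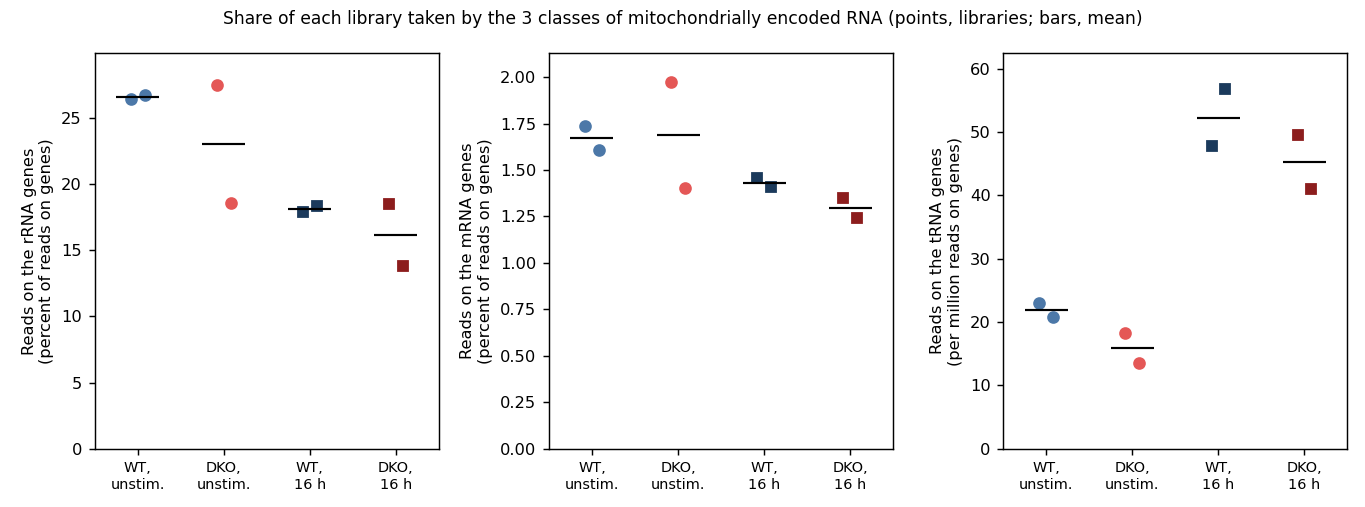
Points are libraries and bars are means of 2. The panels give the percentage of reads on the rRNA genes, the percentage on the mRNA genes and the reads on the tRNA genes per 1000000 reads in the 4 groups. The first 2 classes are lower and the tRNAs higher in stimulated than in unstimulated libraries of the same genotype.

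The rRNAs made up most of this share, at 13.8% to 27.5% of reads, the mRNAs took 1.24% to 1.97%, and the tRNAs took 13.5 to 56.7 of every 1000000 reads. Polyadenylated RNA was sequenced, so reads on the rRNA and tRNA genes need not follow the total levels of these RNAs. The 3 classes did not move together. With stimulation the rRNA share differed by -7.67 percentage points and the mRNA share by -0.316, whereas the tRNA share was 0.00299 percentage points higher. Each of the 3 had an exact permutation p of 0.0556, adjusted p = 0.111. Ratios within a library do not depend on the scaling between libraries. Reads on tRNAs per 1000 reads on mRNAs were 1.32 and 1.30 in unstimulated WT libraries and 3.28 and 4.03 after stimulation, and in DKO libraries they were 0.930 and 0.958, then 3.67 and 3.31. All 4 stimulated libraries were above all 4 unstimulated ones. The ratio of rRNA to mRNA reads was less different, at 15.2 and 16.7 in unstimulated WT, 12.3 and 13.1 in stimulated WT, 14.0 and 13.2 in unstimulated DKO and 13.7 and 11.1 in stimulated DKO libraries.

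For single members, limma was fitted to log2(normalized count + 1) of all 15419 genes that reached this mean. A gene was called when its Benjamini-Hochberg adjusted p was under 0.05 and its fold over 1.5, which 23.3% of genes were in WT and 25% in DKO cells. Values below are log2 ratios of stimulated to unstimulated cells with the standard error (SE) of the fit. In WT cells 5 of the 16 tested members fell with stimulation, against 13.1% of all tested genes, and 1 rose, against 10.2%. The 5 were the mRNAs mt-Cytb, mt-Nd4, mt-Nd5 and mt-Nd2 and the rRNA mt-Rnr1, and the tRNA mt-Tl1 rose. In DKO cells 5 of 16 fell, against 12% of all genes, and 3 rose, against 13%. Here the mRNAs mt-Co1, mt-Cytb, mt-Nd2, mt-Nd4 and mt-Nd5 fell, and mt-Tc, mt-Tf and mt-Tl1 rose. All 8 macrophage markers fell with stimulation in DKO cells, from summed counts of 7712 and 1056 to 72.3 and 27.0, and their part in the DKO values was not tested. These calls rest on the deposited size factors. When libraries were instead given equal total reads, the median gene moved up by 0.52 in WT and 0.35 in DKO on the log2 scale and no member was called lower, and leaving out any 1 of the 4 WT libraries left no call in the WT comparison. In DKO cells 1 member was called lower without stimulated replicate 2 and none higher without stimulated replicate 1. Measured against the median of all genes in the same fit, the 7 mRNAs had a median log2 ratio between -0.77 and -0.79 in WT and between -0.78 and -0.81 in DKO cells under the deposited size factors, the 3 rescalings, edgeR and DESeq2. A rescaling shifts every gene of a library alike, so this closeness was set in advance and does not test the scaling.

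mt-Cytb, the only subunit of complex III made in mitochondria, was at 70359 and 66474 normalized counts in unstimulated WT libraries and at 34511 and 35072 after stimulation. The groups were well apart, at -0.98 ± 0.21 (SE, adjusted p = 0.00931). Its counts in DKO went from 77326 and 53972 to 35106 and 33909, or -0.90 ± 0.21 (SE, adjusted p = 0.0114). Its level after stimulation was close in all 4 libraries, and the unstimulated DKO libraries were the ones that differed from each other.

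Among the complex I subunits, mt-Nd5 fell from 56497 and 51295 to 30290 and 28638 normalized counts in WT and from 51936 and 43096 to 27581 and 24840 in DKO libraries. Its log2 ratios were -0.87 and -0.85, with adjusted p of 0.00909 and 0.00879. mt-Nd4 fell from 27695 and 24965 to 15378 and 13360 in WT and from 28822 and 20473 to 12246 and 12378 in DKO libraries. Its log2 ratios were -0.88 and -0.98, with adjusted p of 0.0126 and 0.00693. mt-Nd2 had the smaller log2 ratios of -0.77 (adjusted p = 0.0188) and -0.63 (adjusted p = 0.0401), from 24633 and 25662 to 14253 and 15225 in WT and from 25729 and 18688 to 15319 and 13154 in DKO libraries. Its DKO call was made in 1 of 8 fits with a library left out and in 6 of 11 other alternatives, the replicate block not among them. In each of these mRNAs all stimulated libraries lay below all unstimulated libraries of the same genotype, which 36% of all genes did in WT and 30.6% in DKO cells.

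mt-Co1, the catalytic subunit of complex IV, was measured at 63404 and 56257 in unstimulated and 40910 and 39993 in stimulated WT libraries, a log2 ratio of -0.56 that was not called (adjusted p = 0.0574). The DKO libraries had 72945 and 58404 before and 38741 and 35435 after, a log2 ratio of -0.82 that was called (adjusted p = 0.0125). The difference between these 2 values was itself -0.25 (95% interval -0.86 to 0.35, adjusted p = 0.817), so that a difference between the genotypes was not shown. mt-Nd1 and mt-Nd6 were called in neither genotype. The counts of mt-Nd1 were 55137 and 50143 in unstimulated and 36151 and 36536 in stimulated WT libraries and 44673 and 36104, then 34734 and 26834, in DKO libraries, with log2 ratios of -0.53 and -0.40. Its groups did not overlap in either genotype. mt-Nd6 had 8039 and 6350 against 4935 and 5159 in WT and 5239 and 4745 against 5131 and 4117 in DKO libraries. The DKO groups overlapped, and the sign of mt-Nd6 turned with the scaling, from -0.12 to 0.27 in DKO and from -0.50 to 0.02 in WT cells with equal total reads. mt-Nd6 lies on the other strand from its neighbours, and without a certain strand setting its reads cannot be told apart from RNA antisense to it.

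The rRNAs had the largest counts. mt-Rnr1, the RNA of the small ribosomal subunit, took 6.86% and 6.63% of reads in unstimulated WT libraries and 4.42% and 4.82% after stimulation, and its normalized counts fell from 1207320 and 1160030 to 534918 and 595788, a log2 ratio of -1.07 ± 0.28 (SE, adjusted p = 0.02). Among DKO libraries it took 5.39% and 5.10%, then 5.29% and 4.03%, and its log2 ratio of -0.57 was not called (adjusted p = 0.152). mt-Rnr2, the RNA of the large subunit, took 19.6% and 20.1% of reads in unstimulated and 13.5% and 13.6% in stimulated WT libraries, with a log2 ratio of its normalized counts of -1.07 that was not called (adjusted p = 0.0515). Its share in DKO was 22.1% and 13.4%, then 13.2% and 9.78%, with a log2 ratio of -0.99 (adjusted p = 0.0644). On the recovered reads edgeR and DESeq2 called mt-Rnr2 lower in both genotypes. Leaving aside fits with a library left out, it was called in 5 of 10 alternatives in WT and 5 of 11 in DKO cells. With equal total reads and with equal reads on other genes it was called in neither genotype. The ratio of mt-Rnr2 to mt-Rnr1 reads was 4.10 in unstimulated DKO replicate 1 and between 2.42 and 3.06 in the other 7 libraries. That library also had the highest summed macrophage markers, at 7712 normalized counts, and the part of these in the ratio was not tested.

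**Figure D3:**
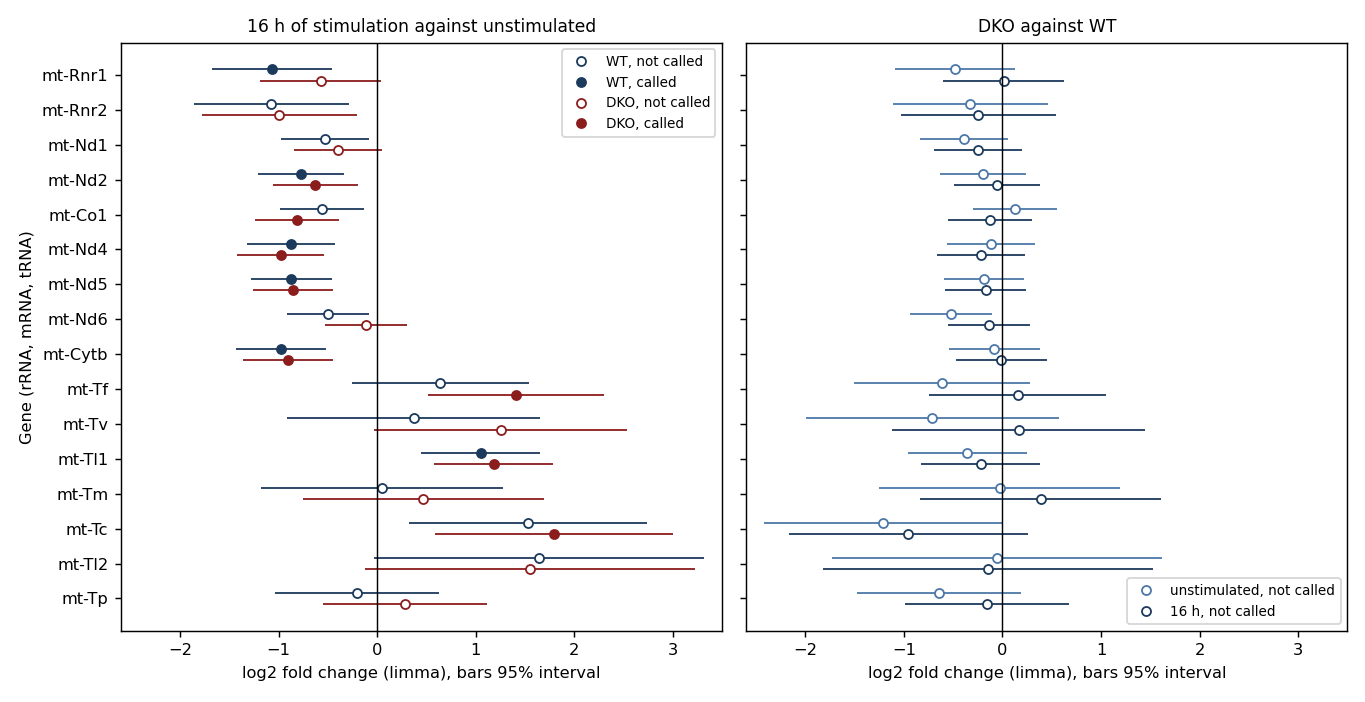
Points are limma log2 fold changes of the 16 tested members and bars are 95% intervals, with stimulated against unstimulated cells on the left and DKO against WT on the right, and filled points are called. On the left the rRNAs and mRNAs lie below 0 and all tRNAs but mt-Tp in WT cells lie above it, and on the right no point is filled.

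Reads on the tRNA genes went the other way and were few, with 169 to 374 in an unstimulated and 591 to 924 in a stimulated library. Whether they came from finished tRNAs or from uncut precursors was not tested. Per 1000000 reads, those on tRNAs were 22.9 (95% Wilson interval 20.7 to 25.4) and 20.8 (18.4 to 23.6) in unstimulated WT and 47.8 (44.5 to 51.4) and 56.7 (53.2 to 60.5) in stimulated WT libraries. In DKO libraries they were 18.3 (16.3 to 20.6) and 13.5 (11.6 to 15.7) before and 49.6 (46.2 to 53.2) and 41.1 (37.9 to 44.5) after stimulation. No interval of a stimulated library reached one of an unstimulated library, but they cover counting alone and not the spread between libraries. mt-Tl1, which lies between mt-Rnr2 and mt-Nd1, held 35.8% to 49.9% of all tRNA reads. Its counts rose from 145 and 152 in unstimulated to 289 and 328 in stimulated WT libraries, at 1.05 ± 0.27 on the log2 scale (SE, adjusted p = 0.0201). The DKO values rose from 135 and 98.8 to 283 and 246, at 1.18 ± 0.27 (SE, adjusted p = 0.0115). mt-Tl1 was called higher under every scaling and in edgeR and DESeq2, in both genotypes. Its DKO call was lost in the fit to 4 libraries, and as given above no WT call held with a WT library left out.

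mt-Tc and mt-Tp belong to the light-strand transcript, and as for mt-Nd6 their reads cannot be told apart from RNA antisense to them. Of the windows of mt-Tc, 23.5% had an exact nuclear copy. mt-Tc was at 21.6 and 28.1 normalized counts in unstimulated and 61.6 and 86.6 in stimulated WT libraries, a log2 ratio of 1.53 that was not called (adjusted p = 0.0659). Between DKO groups it rose from 9.44 and 10.7 to 56.4 and 24.5, at 1.79 ± 0.54 (SE, adjusted p = 0.0359). That call was made in 1 of 8 fits with a library left out and not with every gene above 0, in the fit to 4 libraries or with a replicate block. mt-Tf, at the start of the heavy-strand transcript, had 43.2 and 51.7 against 62.4 and 88.1 in WT libraries, where it was not called (log2 ratio 0.64). In the DKO groups it rose from 36.7 and 25.4 to 77.8 and 87.8, at 1.41 ± 0.40 (SE, adjusted p = 0.0288), a call made in 3 of 8 fits with a library left out. mt-Tl2 had log2 ratios of 1.64 and 1.55 on 2.95 to 19.7 normalized counts, near the floor of 3 reads (2.28 to 4.43) in its lowest libraries, and was called in neither genotype. All 4 of these tRNAs had both stimulated libraries above both unstimulated ones in each genotype, which held for 35% of genes in WT and 30.8% in DKO cells. Not every tRNA did so. mt-Tp had 105 and 70.9 normalized counts in unstimulated and 66.3 and 84.3 in stimulated WT libraries, and its part of the tRNA reads was 19.4% to 25.9% in unstimulated and 11.4% to 12.2% in stimulated libraries. mt-Tm lay between 15.6 and 27.8 and mt-Tv between 10.7 and 39.7 normalized counts over all libraries, and their WT groups overlapped. In DKO cells all 7 tRNAs, these 3 included, had both stimulated libraries above both unstimulated ones. There mt-Tv went from 14.7 and 10.7 to 39.7 and 24.5, a log2 ratio of 1.25 that was not called (adjusted p = 0.137).

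Genotype called none of the members. In unstimulated cells 0 of 16 members were called by limma, edgeR or DESeq2, against 4.73% of all tested genes by limma (3.35% lower and 1.38% higher), and 2 members, mt-Nd6 and mt-Tc, had an unadjusted p under 0.05. The values of 15 members were on the negative side in libraries labelled DKO, and for 9 of the 16 both DKO libraries lay below both WT libraries, as 27.1% of all genes did. None had both above, as 26.5% of genes had. mt-Nd6 had a log2 ratio of DKO to WT of -0.52 (95% interval -0.94 to -0.10, adjusted p = 0.141), from 8039 and 6350 in WT to 5239 and 4745 normalized counts in DKO libraries. That of mt-Tc was -1.21 (95% interval -2.42 to -0.0069, adjusted p = 0.224) and that of mt-Rnr1 -0.48 (95% interval -1.09 to 0.13, adjusted p = 0.34). At the other end, mt-Co1 had 0.13 (95% interval -0.30 to 0.55). The size factors shift all genes here too, with a median of -0.0057 over all genes and -0.19 over the 7 mRNAs as deposited, and 0.15 and -0.02 with equal upper quartiles. The 95% intervals leave room for differences of more than 1.5-fold in every tested member but mt-Co1, mt-Cytb and mt-Nd4. The comparison rests on 2 DKO libraries that also carried macrophage markers at 7712 and 1056 normalized counts, all 8 of which were detected there. Of these, C1qa and C1qc were at 0 in both unstimulated WT libraries. The part of those markers' cells in the values of the members was not tested.

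After 16 h of stimulation 0 of 16 members were called between genotypes by limma, edgeR or DESeq2, against 0.272% of all genes by limma (0.11% lower and 0.162% higher), and none had an unadjusted p under 0.05. Here the summed macrophage markers were 74.0 and 79.0 in WT and 72.3 and 27.0 in DKO libraries. For 6 of the 16 both DKO libraries lay below both WT libraries, as 23.1% of all genes did, and for none above, as 24.3% did. All 7 mRNAs had a negative value, from -0.25 for mt-Nd1 (95% interval -0.70 to 0.19, adjusted p = 0.639) to -0.012 for mt-Cytb (95% interval -0.47 to 0.45). The rRNA mt-Rnr1 had a log2 ratio of 0.012 (95% interval -0.60 to 0.62) and mt-Rnr2 one of -0.24 (95% interval -1.03 to 0.54). The intervals of the tRNAs were wider, such as -2.16 to 0.25 around -0.95 for mt-Tc, which had 61.6 and 86.6 normalized counts in WT and 56.4 and 24.5 in DKO libraries. For the share of reads on all members, the mean genotype difference over both states was -2.85 percentage points (exact permutation p = 0.5 with labels permuted within each state, adjusted p = 0.571). That difference was -5.23 percentage points without unstimulated DKO replicate 1, -0.465 without unstimulated DKO replicate 2 and -1.65 without stimulated DKO replicate 2.

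The response to stimulation was not shown to differ between genotypes for any member. The interaction called 0 of 16 members by limma, edgeR or DESeq2, and none had an unadjusted p under 0.05. Over all genes limma and edgeR called 0%, with 1257 and 1246 genes at an unadjusted p under 0.05, and DESeq2 called 47 genes. Without unstimulated DKO replicate 2 limma called 196 genes and 0 members. Estimates of the interaction for the members ran from -0.25 for mt-Co1 to 0.88 for mt-Tv (95% interval -0.93 to 2.69).

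**Figure D4:**
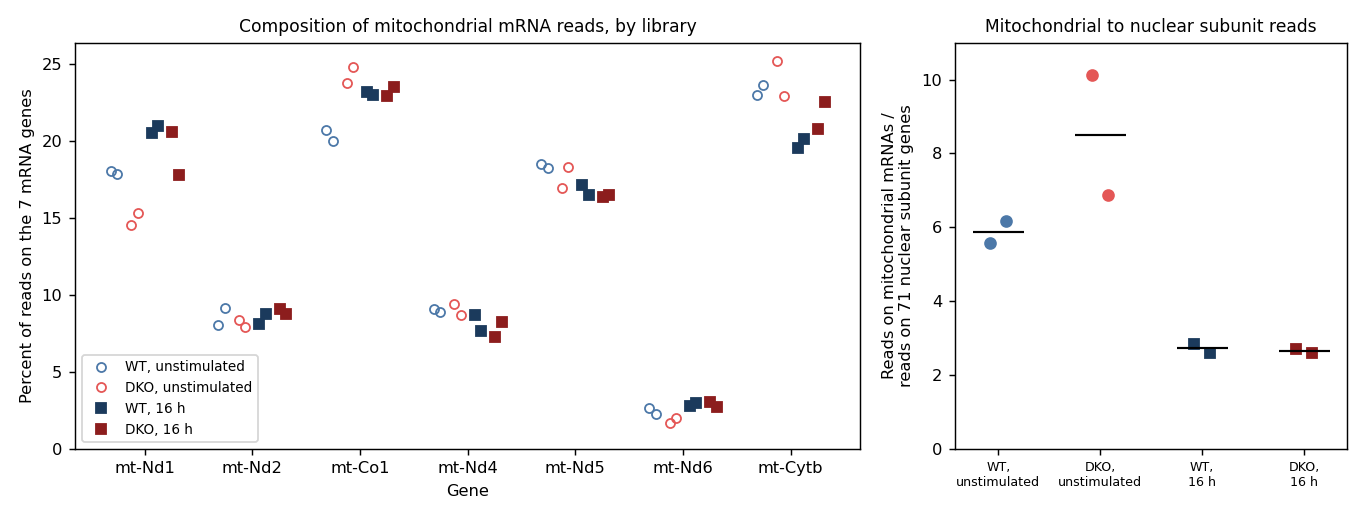
The left panel gives the percentage of mitochondrial mRNA reads on each of the 7 counted mRNAs in each library, and the right panel gives reads on mitochondrial mRNAs divided by reads on 71 nuclear genes for subunits of the same complexes, with bars at the mean of 2. The unstimulated DKO points stand apart for mt-Nd1, and all 4 stimulated libraries have ratios of at most 2.84.

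Within the mRNA class, the balance between members can be read without any scaling between libraries. mt-Co1 held 20.01% to 24.8% and mt-Cytb 19.6% to 25.2% of the reads on the 7 mRNAs, and mt-Nd1, at 14.6% to 21%, exceeded mt-Cytb in both stimulated WT libraries. The part of mt-Cytb was 23.0% and 23.6% in unstimulated and 19.6% and 20.2% in stimulated WT libraries, and 25.2% and 22.9% against 20.8% and 22.5% in DKO libraries. mt-Nd1 went the other way, from 18.0% and 17.8% to 20.5% and 21% in WT and from 14.6% and 15.3% to 20.6% and 17.8% in DKO libraries. In unstimulated cells the part of mt-Nd1 was thus lower and that of mt-Co1 higher in libraries labelled DKO, with 23.8% and 24.8% of mt-Co1 against 20.7% and 20.01% in WT. After stimulation mt-Co1 held 22.9% to 23.5% in all 4 libraries. mt-Nd6 remained the smallest part, from 1.71% to 3.04%. These parts are given as a description and were not tested.

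Each of the complexes that contain mitochondrially encoded subunits is completed by nuclear genes, and many of these rose with stimulation. Of 36 nuclear subunits of complex I, 12 rose with stimulation in WT and 26 in DKO cells. The counts were 3 and 5 of 9 for complex III, 8 and 9 of 11 for complex IV and 8 and 10 of 15 for ATP synthase, and none of these 71 genes fell. Of all tested genes 10.2% rose in WT and 13% in DKO cells. The WT count of 31 was 5 without unstimulated WT replicate 4, 8 and 11 without either stimulated WT library and 15 without unstimulated WT replicate 3, and the DKO count of 50 ranged from 39 to 51 with 1 library left out. Their median log2 ratio was 0.79 in WT and 1.19 in DKO cells beside 0.0051 and -0.03 over all genes, and it was positive under those same 6 treatments of the scaling. Examples are Ndufb6 of complex I at 1.63 and 2.24, Uqcr10 of complex III at 1.60 and 2.21, Cox7a2 of complex IV at 1.15 and 2.12 and Atp5e of ATP synthase at 2.03 and 2.40 on the log2 scale in WT and DKO cells, all called by limma. For complex II, which has no mitochondrially encoded subunit, 0 of 4 genes were called in WT and 3 of 4 in DKO cells. Reads on the mitochondrial mRNAs were 5.58 and 6.16 times those on the 71 nuclear genes in unstimulated WT and 2.84 and 2.60 times in stimulated WT libraries. In DKO libraries the ratio was 10.1 and 6.86, then 2.7 and 2.58, so that all stimulated libraries were close together and all unstimulated ones lay above them.

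Mitochondrial ribosomal proteins, which assemble on the 2 rRNAs, also rose. Of 76 tested genes 40 were called higher in WT and 48 in DKO cells and none lower, beside 10.2% and 13% of all genes called higher, with a median log2 ratio of 1.04 and 1.17, and Mrpl12 had 2.22 and 2.76. The WT count was 9 without unstimulated replicate 4, 21 without unstimulated replicate 3, 15 and 11 without stimulated replicates 1 and 2, and the DKO count was 30 without stimulated replicate 1. Among 17 genes of mitochondrial transcription and DNA maintenance, 4 rose and 1 fell in WT and 6 rose and 1 fell in DKO cells. Over all genes 10.2% rose and 13.1% fell in WT and 13% rose and 12% fell in DKO cells. Polrmt, the mitochondrial RNA polymerase, rose with log2 ratios of 1.62 (adjusted p = 0.00663) and 1.03 (adjusted p = 0.0374), of which the DKO call was lost in 11 of 19 alternatives. Tfam, which packages mitochondrial DNA and starts its transcription, had -0.12 and 0.17 and was not called, and its WT value became 0.40 with equal total reads. The gene that fell was Polg2, the accessory subunit of the mitochondrial DNA polymerase, at -2.32 and -2.05. Of 29 tested genes for processing, modification and stability of mitochondrial RNA, 8 rose in each genotype and none fell, beside those same shares of all genes. They included Lrpprc, which stabilizes mitochondrial mRNAs, at 1.09 and 1.04 (adjusted p = 0.00302 and 0.00316), and the RNA exonuclease Rexo2 at 1.25 and 1.93. Of 7 tested nuclear regulators the PGC-1-related coactivator Pprc1 rose in both genotypes, at 1.65 and 1.23, and Gabpb1, a subunit of the transcription factor GABP, fell in WT cells at -1.26, a call lost with equal total reads and with equal reads on other genes.

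Between genotypes in unstimulated cells 6 of the 71 nuclear subunits were lower in libraries labelled DKO and none higher, beside 3.35% of all genes called lower. The subunits Ndufa12 and Ndufa1 of complex I had log2 ratios of -1.40 and -1.34, and Ndufa4 of complex IV and Atp5b of ATP synthase had -0.84 and -0.76. Of 18 alternatives, the calls of Ndufa12, Ndufa1, Ndufa4 and Atp5b were lost in 12, 13, 10 and 8. The median over the 71 genes was -0.55, beside -0.0057 over all genes. The count of 6 was 1 with equal total reads, 3 with equal reads on other genes, 0 with equal upper quartiles, 4 in edgeR and 13 in DESeq2. Fastkd3, a regulator of mitochondrial RNA, was the member of its list that was lower, at -1.20 (adjusted p = 0.0299), Mrps6 the only ribosomal protein, at -1.19, and Sdhd the only subunit of complex II, at -1.02. The call of Mrps6 was lost in 13 of 18 alternatives, among them the 3 rescalings and edgeR, and those of Fastkd3 and Sdhd in 7 of 18 each. In stimulated cells limma called none of the genes on these lists. The unstimulated DKO libraries differed in macrophage markers as given above, whose part in these values was not tested.

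Annotated nuclear copies gave few counts where the mitochondrial genes were at 0. Gm28661 had 48.1 to 121 and Gm28438 had 16.0 to 46.8 normalized counts, and Gm28437, Gm28439, Gm29216 and Gm10925 reached at most 15.2. Gm28661 fell with stimulation in WT cells, from 100.4 and 121 to 52.2 and 52.4 (log2 ratio -1.06, adjusted p = 0.046), a call lost under each of the 3 rescalings and in edgeR and DESeq2. Reads of such copies and of the mitochondrial genes can be near-identical, so that all counts in the copied stretch, mt-Co1 and mt-Nd4 included, are uncertain in this respect.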

How the data were processed

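The deposited table holds signal values: the authors scaled read counts per gene by a library's size factor and kept 2 decimals. All values came out as whole reads (tolerance 0.006 normalized counts). The study's methods give TruSeq RNA v2, single 50-base reads, Bowtie on NCBIM37 with unique reads, removal of duplicates and HTSeq. The submitters' processing notes name STAR 2.7, mm10, bcl2fastq 1.8.4 and DESeq2, and the labels a stranded kit. Which route made the table could not be settled. mt-Rnr2 held up to 3282964 reads on 1533 start positions, more than removal of duplicates by position would leave. No source used here gives the annotation version. Positions and sequences come from NCBIM37 and GENCODE M1, on which 50-base windows were searched against the nuclear chromosomes, so the window map applies to the table only as far as its build and read length were those of the methods.

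Genes with a mean of 10 or more were fitted with limma 3.58.1 in R 4.3.3 (lmFit, eBayes with trend, 2-sided) on log2(value + 1), with 1 spread for 4 groups. Shares were tested by exact permutation. Alternatives were pseudocounts 0.1 and 5, other filters and scalings, edgeR 4.0.16 and DESeq2 1.42.0 run on the recovered reads, fits to 4 libraries, a replicate term and each library left out. On simulated data with 200 genes changed 4-fold limma called 198 of them among 215 calls. Smaller changes, such as those of the members, were not simulated. Members, tests and lists were chosen with earlier results of these data known. Named genes are the rRNAs, the mRNAs and tRNAs that were tested, core factors, and up to 3 called genes with the largest change per nuclear list and contrast, a choice of which is printed. The composition of the mRNAs and the ratio to nuclear subunits were added after values were seen. A library is a pool of mice, and p-values measure the spread between these pools. Columns not used numbered 0.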

Additional observations from a re-analysis of the deposited data

How the results depend on the processing

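Genotype and interaction called 0 members under every alternative run. With stimulation in WT cells, the count of members called lower was 0 with equal total reads and 1 with equal reads on other genes, and the count called higher was 2 under both and in the fit to 4 libraries. With stimulation in DKO cells, the count called lower was 0 with equal total reads, 2 with equal reads on other genes and 0 in the fit to 4 libraries, and the count called higher was 1 when the mean had to reach 100 and 0 in the fit to 4 libraries. With each library left out in turn, members called lower ranged from 0 to 6 in WT and from 1 to 6 in DKO cells, and members called higher from 0 to 2 in both. The labels share replicate numbers only between stimulated groups and between DKO groups. Deviations of replicate 1 from its group mean correlated over genes at 0.167 between the stimulated groups and 0.257 between the DKO groups. With 2 libraries a group, the deviations of replicate 2 mirror these and add nothing. With a replicate block 1 member was lower and 2 higher with stimulation in DKO cells. Over all genes it gave 393 calls between stimulated genotypes and 4094 with stimulation in DKO cells, against 1 and 1752 in fits to 4 libraries. B cell markers in replicates 1 and 2 were 811 and 153 (stimulated WT), 2435 and 529 (unstimulated DKO) and 1170 and 238 (stimulated DKO). Treg markers were lower in replicate 1 in each of these groups, and macrophage and erythroid markers varied. Whether same-numbered libraries were paired was not tested. The signs of some log2 ratios turned. mt-Nd6 with stimulation was 0.019 in WT and 0.27 in DKO cells with equal total reads, 0.14 in DKO cells with equal reads on other genes, and -0.28 to 0.041 in DKO cells with a library left out, where its genotype value in stimulated cells was -0.29 to 0.024. Left-out libraries gave -0.12 to 0.86 for mt-Tv with stimulation in WT and -0.032 to 0.29 for mt-Co1 between unstimulated genotypes. mt-Rnr1 between stimulated genotypes was -0.035 with equal reads on other genes, and -0.20 to 0.23 with a library left out (-0.066 without WT replicate 1). Tfam with stimulation in WT was 0.40 with equal total reads, 0.24 with equal reads on other genes and -0.24 to 0.0054 with a library left out. The cause was not tested.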
